A study of Homo sapiens with 16 samples.

Results

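Branched-chain amino acid catabolism was followed through 10 genes in polyA RNA sequencing of VCaP, a human prostate cancer cell line whose TMPRSS2-ERG fusion puts the ERG gene under an androgen-driven promoter. The genes were BCAT1, BCAT2, BCKDHA, BCKDHB, DBT, BCKDK, PPM1K, IVD, MCCC1 and MCCC2. They were picked by symbol from the 58302 genes listed, each symbol matched 1 gene identifier, and all 10 were among the 22553 genes tested. BCAT1 heads the set because of its level in these same libraries, so its values are given as a description without a test. The tests below concern the other 9 genes.

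The series holds 16 libraries in 8 groups of 2. Vc cells (labelled VCaP_ctrl) had been kept in ethanol for 4 months and Ver cells (labelled VCaP_enz) in 1 µM enzalutamide, an antiandrogen drug, for 4 months. Both were then deprived of steroid hormones (medium without phenol red, serum stripped with charcoal, 48 h or longer). They were treated for 24 h with nothing further (control), with dihydrotestosterone, the main active androgen (DHT, 1 nM), with 1 µM enzalutamide, or with both compounds. Vc and Ver are a single line each. The labels do not say whether the libraries of a group came from separate cultures, so p-values measure only the spread between these libraries, which may be technical. The sequencing lane given in the labels is L008 for every Vc library and L002 for every Ver library, so lane and line cannot be told apart.

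Libraries held 8155244 to 13273523 counts in genes. The androgen response was present in both lines: the co-chaperone gene FKBP5 rose with DHT by 4.79 log2 units in Vc and by 4.63 in Ver (adjusted p = 4.8e-30 and 1.2e-29, edgeR quasi-likelihood test). Summed CPM (edgeR's counts-per-million scale, with adjusted library sizes) of 7 luminal prostate markers lay between 4209 and 10260 in every library. Markers of other cell types were scarce: 3 basal markers summed to at most 2.30 CPM, with KRT5 at 0 throughout, 3 endothelial markers to at most 3.35, 6 fibroblast and smooth muscle markers to at most 5.34, and 4 immune markers to at most 1.87.

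Leucine, isoleucine and valine are broken down in a common sequence. A branched-chain aminotransferase, cytosolic BCAT1 or mitochondrial BCAT2, moves the amino group to 2-oxoglutarate, giving glutamate and a branched-chain keto acid. The mitochondrial branched-chain keto acid dehydrogenase, built from E1 subunits (BCKDHA, BCKDHB), an E2 core (DBT) and a shared E3, then commits the carbon skeleton to oxidation, and it is switched off by the kinase BCKDK and on by the phosphatase PPM1K. The leucine branch continues through isovaleryl-CoA dehydrogenase (IVD) and methylcrotonyl-CoA carboxylase (MCCC1 and MCCC2 subunits).

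The promoter-side sequences of BCAT1 and MCCC2 are printed because these genes differed most between the lines and with DHT, respectively. They are from RefSeq (GRCh38.p14), end just before the gene's start, and run 5′ to 3′ on the gene's strand. BCAT1 lies at chr12:24810022-24949459 on the minus strand, and the window shown is chr12:24949460-24949590. Capitals mark a copy of TGTTCT, a single arm of the palindromic androgen response element.
BCAT1: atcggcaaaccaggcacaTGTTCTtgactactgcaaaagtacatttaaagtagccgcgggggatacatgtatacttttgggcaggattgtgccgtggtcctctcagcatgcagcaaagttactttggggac
MCCC2 lies at chr5:71587288-71658704 on the plus strand, and the window shown is chr5:71587090-71587287. Capitals mark a CACGTG E-box, the letters bound by MYC and related factors.
MCCC2: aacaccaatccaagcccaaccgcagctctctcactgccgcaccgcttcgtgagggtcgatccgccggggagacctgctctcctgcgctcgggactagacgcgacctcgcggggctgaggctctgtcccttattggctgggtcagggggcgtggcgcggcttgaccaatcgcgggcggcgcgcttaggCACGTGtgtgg

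Such letters are common. Over 35116 RefSeq windows of 250 bases before a start, searched on both strands, 12.4% held the arm AGAACA, which reads as the printed hexamer on the opposite strand, and 6.34% held CACGTG. The full palindromic element, both arms with any 3 bases between them, which contains that arm, was in 1 window (0.00285%) and in none of the members' windows. TGATGNAA, letters of the amino acid response element, was in 3.14% of windows. RefSeq gives 5 starts for BCAT1, of which the first had the TGTTCT copy and the second a TGATGNAA match. MCCC1 held CACGTG in 2 of its 3 windows, which overlap. BCKDHA, BCKDHB, DBT, BCKDK, PPM1K and IVD held none of these letters in their windows, and BCAT2 was not matched. The counts do not show which start was used.

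BCAT1 was scarce in Vc and many-fold higher in Ver. In Vc it had 0.924 and 1.02 CPM in control medium (12 counts in each library), 0.657 and 1.32 CPM with DHT (8 and 13 counts), 0.415 and 0.882 CPM with enzalutamide (5 and 10 counts), and 1.77 and 2.56 CPM with both compounds (22 and 29 counts). In Ver it had 17.8 and 14.04 CPM in control medium (184 and 157 counts), 14.5 and 16.1 CPM with DHT (162 and 174 counts), 13.2 and 15.4 CPM with enzalutamide (115 and 170 counts), and 18.3 and 18.4 CPM with both (175 counts in each). Every Ver library lay above every Vc library. Within Ver, the control, DHT and enzalutamide groups overlapped in the order of their means and only the group with both compounds stood clear of its neighbour. Within Vc the group with both compounds was highest and the DHT and control groups overlapped.

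The log2 difference of BCAT1, Ver minus Vc, was 4.02 (SE 0.34) in control medium, 16.2-fold. It was 3.98 (SE 0.36) with DHT, 4.46 (SE 0.41) with enzalutamide and 3.09 (SE 0.26) with both, the last being 8.52-fold. The smallest of these differences was found where Vc itself was highest. The few counts in Vc set the precision: without the second Vc enzalutamide library the difference under enzalutamide became 5.08. Treatments moved BCAT1 little by comparison, with DHT minus control at -0.018 (SE 0.46) in Vc and -0.062 (SE 0.19) in Ver. These signs were not stable, since leaving out 1 library gave 0.44 or -0.55 in Vc and 0.13 in Ver. Enzalutamide minus control was -0.59 (SE 0.50) in Vc, and -1.20 without the second enzalutamide library, and it was -0.15 (SE 0.19) in Ver. On top of DHT, enzalutamide gave 1.16 (SE 0.40) in Vc and 0.27 (SE 0.19) in Ver. Antisense and other transcripts overlapping BCAT1 exons had at most 2 counts in any library.

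**Figure D1:**
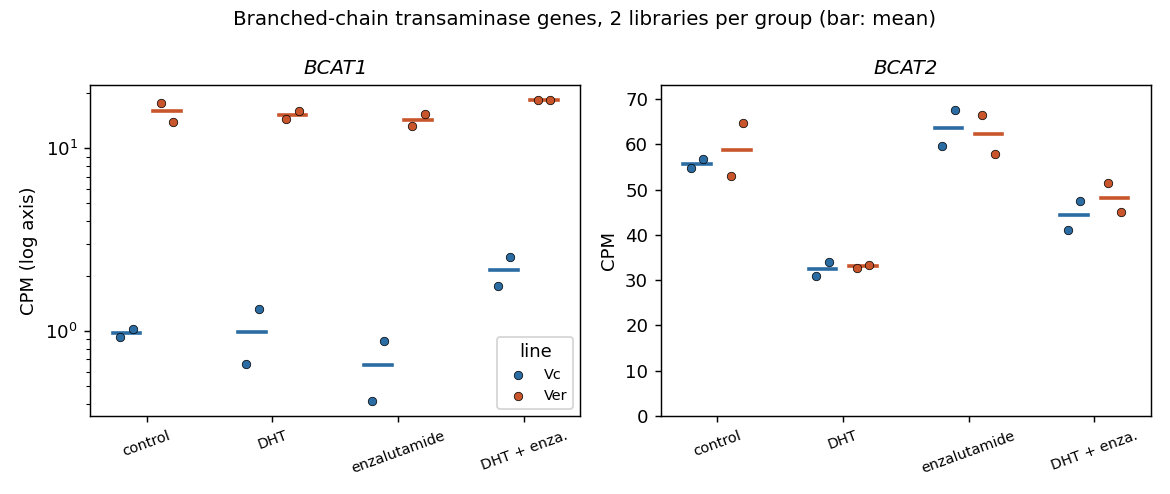
CPM of BCAT1 (left, log axis) and BCAT2 (right, linear axis) under the 4 treatments, with a point per library and a bar at the mean of the 2 libraries, Vc in blue and Ver in orange. BCAT1 separated the lines, from at most 2.56 CPM in Vc to at least 13.2 CPM in Ver, while BCAT2 was lowest with DHT in both lines and its control and enzalutamide libraries overlapped in Ver.

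BCAT2 (chr19:48795062-48811029, minus strand), the mitochondrial aminotransferase, fell with DHT in both lines. In Vc it had 54.7 and 56.7 CPM in control medium against 30.9 and 33.9 with DHT, a log2 difference of -0.78 (SE 0.10, adjusted p = 2.6e-12). Ver control libraries had 52.95 and 64.7 CPM and its DHT libraries 32.7 and 33.3, a difference of -0.83 (SE 0.10, adjusted p = 1.9e-13). The DHT libraries lay below the control libraries without overlap in both lines. Enzalutamide on top of DHT brought BCAT2 part of the way back, to 41.1 and 47.5 CPM in Vc (log2 difference from DHT 0.45, adjusted p = 1.4e-04) and to 51.5 and 44.95 CPM in Ver (0.55, adjusted p = 2.8e-06). BCAT2 was not called between the lines, with log2 differences, Ver minus Vc, of 0.081 (SE 0.096) in control medium, 0.030 (SE 0.11) with DHT, -0.033 (SE 0.096) with enzalutamide and 0.12 (SE 0.10) with both (adjusted p from 0.420 to 0.901).

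Because genes of different length cannot be compared in CPM, the aminotransferases were also set side by side per kb of exon. On that scale BCAT1 made up 0.670 ± 0.0300% of the summed BCAT1 and BCAT2 level in Vc control libraries (mean ± SD, n = 2) and 9.64 ± 2.67% in Ver control libraries. With DHT, where BCAT2 was lowest, the share was 1.15 ± 0.471% in Vc and 15.1 ± 0.799% in Ver. BCAT2 was thus the more abundant aminotransferase transcript in every group. Per kb of exon in control medium, MCCC2 was the highest of the 10 genes (32.5 ± 3.40 CPM per kb in Vc and 40.1 ± 1.11 in Ver), followed by IVD and MCCC1. BCAT1 was the lowest in Vc at 0.0825 ± 0.00574 CPM per kb and ninth in Ver at 1.35 ± 0.228, above BCKDHA. Of the exon length of BCKDHA, 64.6% is shared with other genes, and reads there are not assigned to it. Its level per kb of full exon length is therefore a low estimate, and its order against BCAT1 in Ver is not settled.

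Among the 9 tested genes, DHT raised 4 and lowered 3 in each line, and they were the same genes: BCKDK, PPM1K, IVD and MCCC2 rose and BCAT2, BCKDHB and MCCC1 fell. Across all genes 44.3% were called for DHT in Vc, 21.8% upward and 22.5% downward, and 44.1% in Ver, 21.2% upward and 22.9% downward, so a count of 7 of 9 is read against a background in which nearly as many genes moved as did not. The median log2 difference of the 9 genes was -0.091 in Vc and -0.14 in Ver, against -0.036 and -0.041 over all genes tested. The genes therefore did not move in a single direction.

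Within the dehydrogenase, the E1 beta gene BCKDHB (chr6:80106647-80346270, plus strand) fell with DHT. It had 46.3 and 47.2 CPM in Vc control libraries and 28.99 and 28.3 with DHT (log2 difference -0.71, SE 0.11, adjusted p = 1.1e-09). Ver gave 46.4 and 45.6 CPM against 31.8 and 30.7 (-0.56, SE 0.11, adjusted p = 1.3e-06). Unlike BCAT2, BCKDHB was not called for enzalutamide on top of DHT, with differences of 0.13 (adjusted p = 0.448) in Vc and -0.015 (adjusted p = 0.945) in Ver; whether the response differs between these genes was not tested. The E2 core gene DBT (chr1:100186919-100249834, minus strand) ranged from 55.2 to 73.3 CPM over all libraries. Its DHT differences of -0.17 (adjusted p = 0.0765) in Vc and -0.14 (adjusted p = 0.157) in Ver were not called, although the latter reached an adjusted p of 0.0415 without the second Ver DHT library.

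BCKDHA (chr19:41397460-41425005, plus strand), the E1 alpha gene, gave only 4 to 27 counts per library and group means of 0.593 to 1.85 CPM. In the GENCODE 29 annotation 64.6% of its exon length is shared with other genes, 63.8% with the same-strand protein-coding gene AC011462.1, which had 0 counts in every library. Reads in such shared stretches are not assigned to either gene under union counting, and what part this has in the level of BCKDHA was not tested. BCKDHA was called in none of the 13 comparisons by edgeR. Its smallest p was for enzalutamide against control in Ver, a log2 difference of -1.58 (SE 0.63, unadjusted p = 0.00927, adjusted p = 0.277), which was the only 1 under 0.05 before adjustment.

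The kinase and the phosphatase that act on the complex in opposite ways both rose with DHT. BCKDK (chr16:31106107-31112791, plus strand) had 27.7 and 26.8 CPM in Vc control libraries and 39.7 and 36.6 with DHT, a log2 difference of 0.49 (SE 0.12, adjusted p = 6.7e-05). In Ver it went from 33.5 and 29.4 CPM to 43.0 and 42.2, a difference of 0.44 (SE 0.12, adjusted p = 3.2e-04). PPM1K (chr4:88257620-88284769, minus strand) rose by 0.29 log2 units in each line (SE 0.086 and 0.087, adjusted p = 9.9e-04 in Vc and 0.00108 in Ver). The ratio of BCKDK to PPM1K per kb moved from 1.33 ± 0.0649 to 1.52 ± 0.0760 upon DHT for Vc (mean ± SD, n = 2, no test). For Ver it moved from 1.45 ± 0.0458 to 1.61 ± 0.0794. With enzalutamide alone the ratio was 1.41 ± 0.0519 in Vc and 1.44 ± 0.0255 in Ver. The lines lay furthest apart with both compounds, at 1.40 ± 0.0518 in Vc and 1.91 ± 0.0820 in Ver.

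PPM1K was the gene of the complex whose level under both compounds set the lines apart. With DHT plus enzalutamide it had 75.9 and 71.2 CPM in Vc, about as with DHT alone (74.1 and 73.2). Ver had 57.6 and 56.5 CPM, below the 75.6 and 79.5 seen with DHT alone. The log2 difference of both compounds from DHT was -0.0017 for Vc (adjusted p = 0.992) and -0.44 for Ver (SE 0.089, adjusted p = 1.9e-06). The difference between these effects, Ver minus Vc, was -0.44 (SE 0.12, adjusted p = 0.0165). That call was lost in 6 of the 8 fits that left out 1 library of the groups concerned, with adjusted p from 0.0633 to 0.171.

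**Figure D2:**
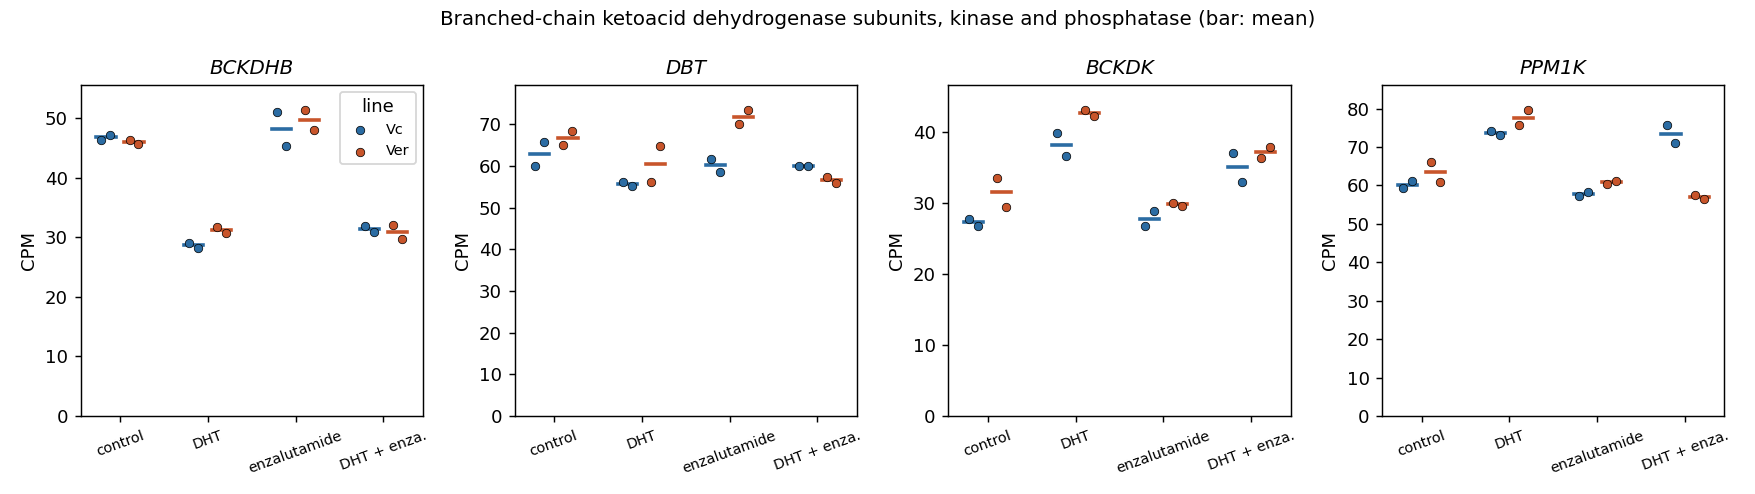
CPM of the dehydrogenase subunit genes BCKDHB and DBT, the kinase gene BCKDK and the phosphatase gene PPM1K under the 4 treatments, with a point per library and a bar at the mean, Vc in blue and Ver in orange. BCKDHB was low and BCKDK high in the DHT libraries of both lines, and PPM1K under both compounds was high in Vc (71.2 and 75.9 CPM) and low in Ver (56.5 and 57.6 CPM).

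MCCC2, the beta subunit gene of methylcrotonyl-CoA carboxylase, had the largest DHT response of the 9 genes. In Vc it had 182 and 210 CPM in control medium and 548.5 and 552.5 with DHT, a log2 difference of 1.49 (SE 0.065, adjusted p = 8.9e-57). In Ver it had 247 and 237 CPM in control medium and 468 and 457 with DHT, a difference of 0.93 (SE 0.065, adjusted p = 2.1e-35). The response was smaller in Ver: the difference between the lines was -0.56 (SE 0.092, adjusted p = 1.4e-08), with Ver higher before DHT and lower after it. MCCC2 was the only 1 of the 9 genes called for a difference in DHT response, where 2.32% of all genes were called.

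Its partner MCCC1 (chr3:183015218-183116075, minus strand), the alpha subunit gene, went the other way with DHT. MCCC1 had 82.3 and 74.1 CPM in Vc control libraries and 56.7 and 58.2 with DHT (log2 difference -0.45, SE 0.087, adjusted p = 5.7e-07). Its Ver values were 69.8 and 63.3 CPM against 57.3 and 54.8 (-0.25, SE 0.089, adjusted p = 0.00887). The Ver call was lost without the first Ver control library (adjusted p = 0.201) or the second Ver DHT library (adjusted p = 0.0856). Per kb, MCCC2 exceeded MCCC1 1.81 ± 0.322 times in Vc control libraries and 6.86 ± 0.0904 times in Vc DHT libraries, and 2.61 ± 0.108 and 5.91 ± 0.0896 times in Ver (mean ± SD, n = 2). The antisense gene MCCC1-AS1 covers 1.67% of the exon length of MCCC1 and had 13 to 31 counts of its own. Reads in the shared stretch are not assigned to either gene under union counting.

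IVD (chr15:40405795-40435947, plus strand), which acts just before the carboxylase, rose with DHT in both lines and was lower in Ver throughout. In Vc it had 145 and 160 CPM in control medium and 235 and 237 with DHT (log2 difference 0.63, SE 0.067, adjusted p = 4.8e-19). In Ver it had 118 and 126 CPM against 196 and 201 (0.70, SE 0.069, adjusted p = 4.3e-21). No DHT library overlapped a control library of its line. The DHT response of IVD was not called as different between the lines (0.071, SE 0.096, adjusted p = 0.812).

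**Figure D3:**
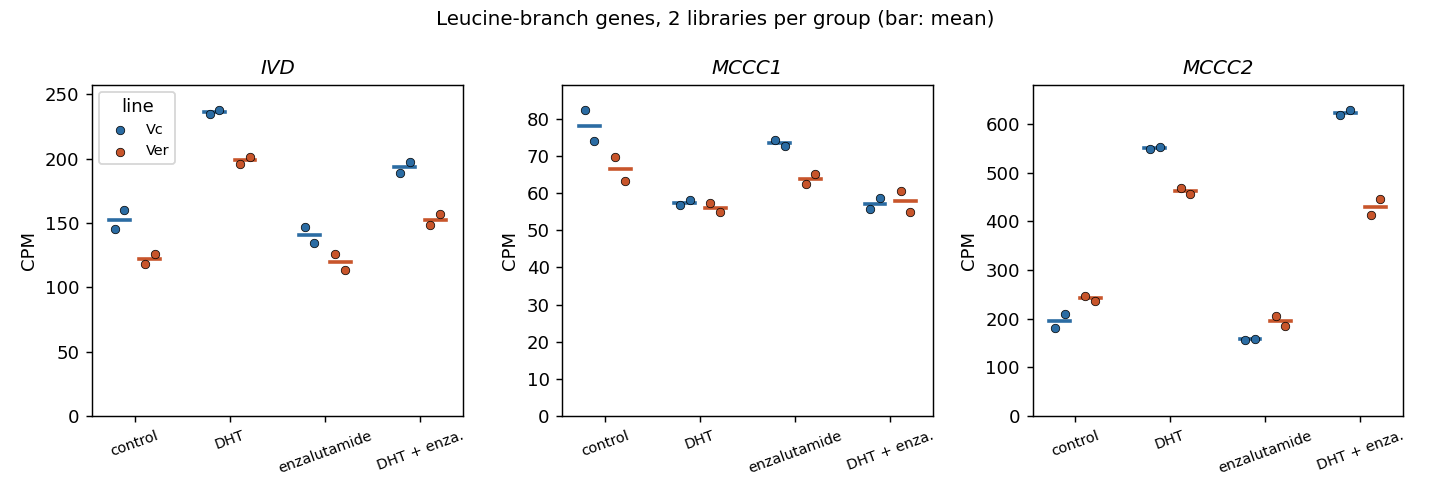
CPM of the leucine-branch genes IVD, MCCC1 and MCCC2 under the 4 treatments, with a point per library and a bar at the mean, Vc in blue and Ver in orange. MCCC2 rose with DHT from 182 and 210 to 548.5 and 552.5 CPM in Vc and stayed high with both compounds, while MCCC1 was lower with DHT in both lines.

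Enzalutamide alone called a single member, MCCC2, in each line. Across all genes 0.537% were called in Vc and 1.13% in Ver. MCCC2 had 156 and 159 CPM with enzalutamide in Vc and 205 and 185 in Ver, a log2 difference from control of -0.32 for Vc (SE 0.068, adjusted p = 7.0e-05) and of -0.32 for Ver (SE 0.067, adjusted p = 4.3e-05). The call in Vc was lost without the second Vc control library (adjusted p = 0.265) and that in Ver without the second Ver enzalutamide library (adjusted p = 0.0642). No member was called for a difference in enzalutamide response between the lines by edgeR, where 5 genes in all (0.0222%) were called. DESeq2 also called 0 members there, and 0 had an unadjusted p under 0.05 in edgeR. The comparisons of DHT and of enzalutamide with control share their control libraries.

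With DHT present, enzalutamide changed 3 of the 9 genes in Vc, where 22.4% of all genes were called, and 3 in Ver, where 26.9% were. BCAT2 rose in both lines as given above. IVD fell in both, to 189 and 197.5 CPM in Vc (log2 difference from DHT -0.29, SE 0.066, adjusted p = 2.2e-05) and to 148 and 157 CPM in Ver (-0.38, SE 0.069, adjusted p = 4.6e-08). PPM1K fell in Ver. These comparisons use the same DHT libraries as the comparisons of DHT with control.

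No fall of MCCC2 from its DHT level was called under both compounds. In Vc it had 618 and 628 CPM, above the 548.5 and 552.5 seen with DHT alone, a log2 difference of 0.18 (SE 0.062, adjusted p = 0.00509). That rise was lost without the second library with both compounds (adjusted p = 0.0627) or the first DHT library (adjusted p = 0.0589). In Ver it had 412 and 446 CPM against 468 and 457, a difference of -0.11 (SE 0.064, adjusted p = 0.117). The difference between the lines was -0.29 (SE 0.089, adjusted p = 0.0194) and was lost in 6 of the 8 fits without 1 library (adjusted p from 0.0625 to 0.270). Together with PPM1K it made 2 of 9 genes called in this comparison, where 1.29% of all genes were called. No fit that left out 1 library called both.

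**Figure D4:**
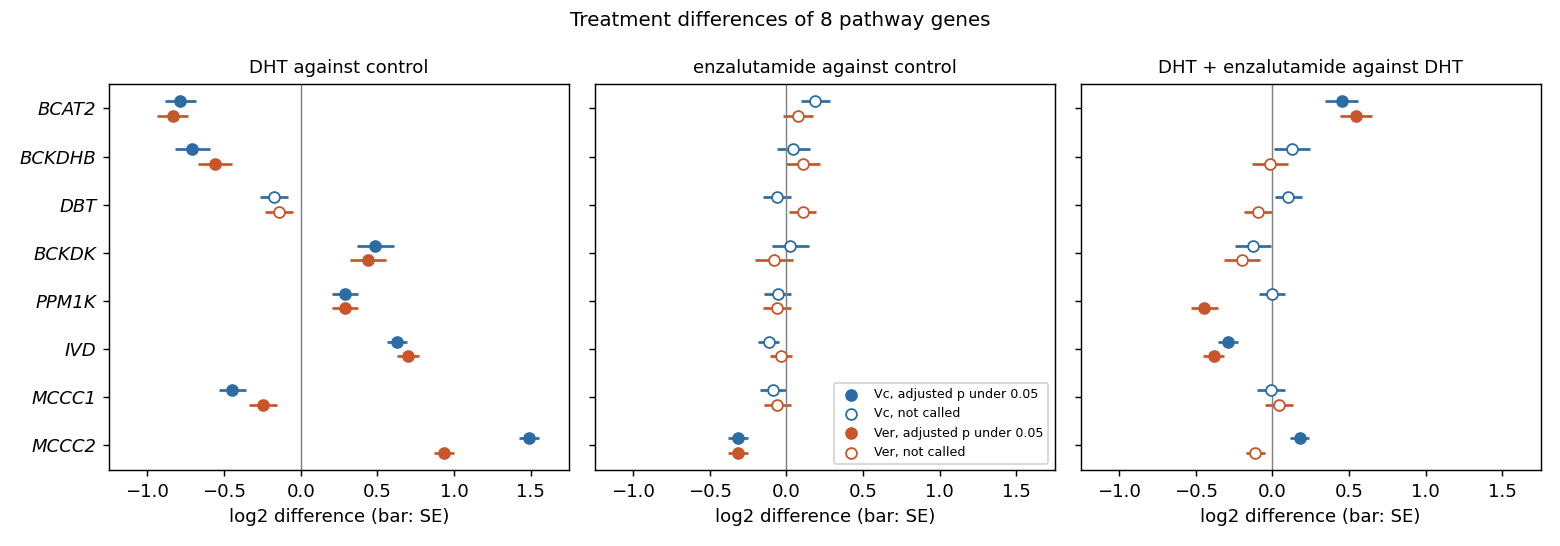
Log2 differences (points) with their SE (bars) for 8 genes in the comparisons of DHT with control, enzalutamide with control, and both compounds with DHT, Vc in blue and Ver in orange, filled where the adjusted p was under 0.05. BCAT2 changed by -0.78 and -0.83 with DHT and by 0.45 and 0.55 when enzalutamide was added, and MCCC2 rose by 1.49 and 0.93 with DHT.

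Setting Ver against Vc under the same treatment called 3 of the 9 genes in control medium (18.9% of all genes called), 2 with DHT (17.3%), 3 with enzalutamide (16.6%) and 3 with both (20.3%). IVD was lower in Ver under all 4 treatments, by -0.32 log2 units in control medium (SE 0.070, adjusted p = 1.0e-05), -0.25 with DHT (adjusted p = 4.5e-04), -0.24 with enzalutamide (adjusted p = 0.00220) and -0.34 with both (adjusted p = 1.6e-06). The call with enzalutamide was lost without the first Vc or the second Ver enzalutamide library (adjusted p = 0.156 and 0.197). MCCC2 was higher in Ver without androgen, by 0.31 in control medium (SE 0.066, adjusted p = 3.1e-06) and 0.31 with enzalutamide (adjusted p = 7.4e-06). With androgen it was lower, by -0.25 with DHT (SE 0.063, adjusted p = 7.1e-05) and -0.54 with both (SE 0.063, adjusted p = 6.7e-17).

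The remaining calls between the lines were small. MCCC1 was lower in Ver control libraries by -0.23 (SE 0.086, adjusted p = 0.0224), a call lost in DESeq2 (adjusted p = 0.0572), without the first Vc control library (0.373) and without the second Ver control library (0.359). DBT was higher in Ver with enzalutamide by 0.25 (SE 0.089, adjusted p = 0.0173), a call lost without the second Vc or the second Ver enzalutamide library (adjusted p = 0.174 and 0.149). PPM1K was lower in Ver with both compounds by -0.37 (SE 0.089, adjusted p = 1.4e-04). Next to the log2 difference of 4.02 for BCAT1, the largest called difference between the lines among the other 9 genes was -0.54, for MCCC2 with both compounds.

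Of 20 genes for the remaining steps of branched-chain amino acid breakdown, DHT raised 9 and lowered 6 in Vc, and raised 8 and lowered 7 in Ver, where 44.3% and 44.1% of all genes were called, about equally in each direction. ACAD8, the isobutyryl-CoA dehydrogenase of the valine branch, was at 31.9 ± 1.08 CPM in Vc control libraries and 141.5 ± 4.55 with DHT (mean ± SD, n = 2), a log2 difference of 2.15 (SE 0.091, adjusted p = 1.0e-53). Ver gave 32.4 ± 0.784 and 151 ± 1.15 CPM, a difference of 2.22 (SE 0.092, adjusted p = 8.2e-55). PCCA, a propionyl-CoA carboxylase subunit, rose by 1.11 and 1.26. OXCT1, which activates ketone bodies, fell by 1.02 on the log2 scale in both lines. With both compounds ACAD8 was at 44.9 ± 2.78 CPM in Vc and 37.7 ± 5.19 CPM in Ver, a fall from DHT of -1.66 (adjusted p = 6.1e-42) and -2.00 (adjusted p = 5.7e-49). Of the acyl-CoA dehydrogenases of the pathway, ACAD8 and IVD rose with DHT and fell when enzalutamide was added. ACADSB, which acts in the isoleucine branch, fell with DHT by 0.31 on the log2 scale in Vc (adjusted p = 0.0379) and by 0.67 in Ver (adjusted p = 2.7e-06), and its differences under both compounds from DHT, 0.27 and 0.24, were not called (adjusted p = 0.133 and 0.187). The Vc call of ACADSB was lost in DESeq2 (adjusted p = 0.0856) and without 3 of the 4 libraries in turn (0.0797 to 0.611), and the gene was picked after its values were seen. In control medium 5 genes of the list were lower in Ver and none higher, where 9.73% of all genes were lower and 9.13% higher: HIBCH by -0.74 (adjusted p = 3.5e-07), and AUH, PCCA, DLD and HADHA by less. The calls of AUH and PCCA were lost without 1 library, and that of PCCA in DESeq2 (adjusted p = 0.0537).

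Of 10 branched-chain amino acid transporter genes 8 were tested, and with DHT 5 rose in Vc, 4 rose in Ver and none fell (of all genes 21.8% rose and 22.5% fell in Vc, and 21.2% rose and 22.9% fell in Ver). SLC43A1, a plasma membrane carrier of branched-chain amino acids, rose by 1.47 in Vc (SE 0.12, adjusted p = 1.9e-26) and 1.40 in Ver (SE 0.12, adjusted p = 2.4e-24). SLC3A2, the heavy chain shared by several amino acid exchangers, rose by 1.32 and 1.18, and SLC25A44, the mitochondrial branched-chain amino acid carrier, by 0.89 and 0.97. SLC7A5, the LAT1 light chain, was scarce, at 0.929 ± 0.00751 CPM in Vc control libraries and 2.46 ± 0.465 with DHT. Its rise in Vc (1.41, SE 0.50, adjusted p = 0.0131) was lost in DESeq2 (0.0534) and without 3 of the 4 libraries in turn (0.0575 to 0.120), and SLC6A19 also passed in Vc (0.65, adjusted p = 0.0360). SLC7A8, the LAT2 light chain, was lower in Ver than Vc in control medium (19.3 ± 1.76 against 39.0 ± 1.80 CPM) and rose with DHT in Ver (0.89, adjusted p = 2.4e-10) but not detectably in Vc (0.050, adjusted p = 0.758). The difference in its DHT response, Ver minus Vc, was 0.84 (SE 0.17, adjusted p = 2.6e-04).

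Among 10 genes of amino acid sensing upstream of the growth kinase complex mTORC1, most of them on the leucine side and 1 of them the arginine sensor gene CASTOR1, DHT raised SESN2 and SAR1B in both lines and RRAGA in Ver, and lowered SESN1 and SESN3 in both and RRAGB in Vc, against the same 44.3% and 44.1% of all genes called. SESN2, a leucine-binding sestrin, rose by 1.95 for Vc (SE 0.13, adjusted p = 1.4e-31) and 2.06 for Ver (SE 0.13, adjusted p = 1.1e-34), and SAR1B by 1.50 and 1.56. SESN3 changed by -1.61 (adjusted p = 2.9e-63) and -1.50 (adjusted p = 1.5e-58). The sestrin genes therefore moved in opposite directions. Enzalutamide on top of DHT moved each of these 3 genes back, SESN2 by -0.78 and -1.05, SAR1B by -0.63 and -0.68, and SESN3 by 1.07 and 0.95 in Vc and Ver.

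BCAT1 and BCAT2 pass nitrogen to glutamate, and 11 genes of glutamate handling and other transaminases were examined beside them. DHT raised GPT2, PSAT1, GOT1 and GLUD1 and lowered GOT2 and GPT in both lines, with 44.3% and 44.1% of all genes called. GPT2, the mitochondrial alanine aminotransferase, was at 53.6 ± 1.19 CPM before and 180.0 ± 4.36 after DHT in Vc, a rise of 1.75 (adjusted p = 1.9e-53). The Ver libraries had 69.9 ± 4.89 and 197 ± 0.0491 CPM, a rise of 1.49 (adjusted p = 1.2e-46). PSAT1, of serine synthesis, rose by 1.60 and 1.33, and cytosolic GOT1 by 1.57 in each line. The fall of GPT in Vc (-0.78, adjusted p = 0.00277) was lost without the second control (0.123) or the second DHT library (0.0512). The transaminase genes of the list thus moved both ways, GPT2, PSAT1 and GOT1 opposite to BCAT2 and GOT2 and GPT with it.

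Of 13 genes of the sister 2-oxoacid dehydrogenases 12 were tested, and DHT raised 4 and lowered 4 in Vc and raised 4 and lowered 5 in Ver, against 44.3% and 44.1% of all genes called. PDHA1, the pyruvate dehydrogenase E1 alpha gene, rose by 0.71 and 0.50. PDK1, a pyruvate dehydrogenase kinase, fell by 0.97 and 1.09 on the log2 scale, opposite in sign to BCKDK. OGDHL, a 2-oxoglutarate dehydrogenase-like gene, changed by -1.19 and -2.22. Among regulators, ATF4, the amino acid stress factor, rose by 1.30 (adjusted p = 9.9e-52) and 1.16 (adjusted p = 2.7e-46), and KLF15, a factor known to drive BCAT2 in muscle, by 1.40 and 1.09. MYC, reported to bind BCAT1 in other cells, changed by -2.84 and -2.93. The BCAT1 differences were -0.018 (SE 0.46, with few counts) in Vc and -0.062 (SE 0.19) in Ver. A link between MYC and BCAT1 was not tested. In Ver control libraries MYC was slightly lower than in Vc (-0.25, adjusted p = 1.1e-04).

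The genes most like BCAT1 over the 8 group means (log2 CPM, 12427 genes with a mean of at least 5 CPM) were APOL6 (Pearson r 0.995), CCZ1 (0.992), MDM2 (0.992), RELN (0.991) and WNK1 (0.990). ADAMTSL1 (-0.995) and NDUFA10 (-0.992) were among the most opposite. All 7 of these genes separate Vc from Ver, as lane also does, and the correlation describes little beyond that split. RELN was at 13.6 to 27.5 CPM over the Vc group means and at 77.2 to 126 over those of Ver. Like BCAT1, RELN and APOL6 were highest within each line under both compounds (APOL6 at 8.81 CPM in Vc and 19.5 in Ver). They were picked for likeness to BCAT1 over these same group means, so this shared peak is no separate result. By Spearman correlation none of the 5 was among the 5 most alike.

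BCAT1 was also viewed with the genes around it. Within 2 Mb 58 genes are listed and 15 were tested. In control medium 5 were higher in Ver and 1 lower, where 9.13% of all genes were higher and 9.73% lower. With DHT 9 were higher and none lower (all genes 7.9% and 9.37%), with enzalutamide 8 and none (7.88% and 8.69%), and with both compounds 5 and none (9.28% and 11%). Several of the 15 were close to the filter on low counts and had more counts in Ver. Examples are AC092794.1 (0.328 CPM in Vc and 1.07 in Ver control libraries), LMNTD1 (0.551 and 1.41) and SSPN (0.605 and 1.07). BHLHE41, which was called in control medium, was also close to the filter in Vc (0.976 and 2.95). The counts of higher neighbours therefore do not stand for all 58 genes. Among the 5 higher in control medium were BHLHE41 (1.59, SE 0.47, adjusted p = 0.00645), RASSF8-AS1 (1.35, SE 0.25, adjusted p = 5.4e-06), ETFRF1 (1.10, SE 0.21, adjusted p = 4.3e-06) and RASSF8 (0.67, SE 0.12, adjusted p = 4.9e-07). ITPR2 was lower (-0.47, SE 0.11, adjusted p = 2.4e-04). The call of BHLHE41 was lost without the first control library of either line (adjusted p = 0.101 and 0.0829). ETFRF1 overlaps another gene and RASSF8-AS1 overlaps RASSF8, so their reads cannot be fully separated. The window was chosen with the BCAT1 difference known.

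**Figure D5:**
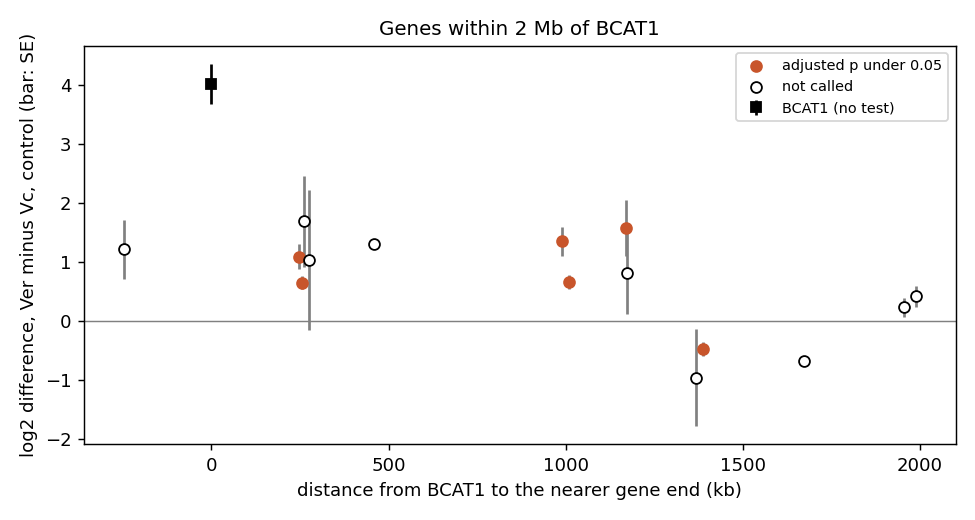
Log2 difference, Ver minus Vc in control medium, of the 15 tested genes within 2 Mb of BCAT1 against their distance from it in kb (minus is toward lower coordinates), with SE bars where one could be computed, filled where the adjusted p was under 0.05, and BCAT1 as a black square at 0. BCAT1 stands at 4.02 and BHLHE41, RASSF8-AS1, ETFRF1 and RASSF8 lie between 0.67 and 1.59.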

How the data were processed

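For each of the 16 libraries the authors deposited read counts per gene, and for the series a table of normalized signal whose values equal the counts divided by a size factor per library (largest relative deviation 5.3e-10), used here to match symbols to identifiers. Per the submitters' processing notes, the tools were HTSeq 0.11.1, HISAT2, SAMtools, Trimmomatic 0.36-5 and FastQC 0.11.7, and the genome was GRCh38. Unstranded union counting is read from the names of the deposited count files. The 5 summary lines of each file were set aside: reads in no gene were 45.0 to 50.6% and ambiguous reads 7.09 to 8.55% of those counted.

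The test was edgeR's (4.0.16, under R 4.3.3): filterByExpr by group, TMM scaling, a robust quasi-likelihood fit over all 16 libraries (residual degrees of freedom 8, and a common biological CV of 6.01%), two-sided F tests for 13 comparisons, and Benjamini-Hochberg adjustment over 22553 genes with calls at 0.05. Each adjusted p is from this test unless DESeq2 (1.42.0) is named. The SE is a Wald SE that uses the larger of the quasi-likelihood and Poisson variances. CPM uses TMM-scaled library sizes. CPM per kb uses the union of exons in GENCODE 29, which holds 58039 of the identifiers and gave all gene positions. The fitting script was tested on simulated data.

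The members, gene lists and comparisons were chosen with earlier results of these data known. Named were all members, up to 4 called genes per list and comparison by size, list genes behind a count of at most 5, the androgen check genes, the genes most like and opposite to BCAT1, and neighbours. From these the text names a part, and some are not reported here. Alternatives were other size factors, DESeq2, no filter on low counts, fits on only the groups compared, the replicate number as a block, and leaving out each library.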

Additional observations from a re-analysis of the deposited data

Results flagged for a closer look

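In 3 cases a treatment effect differed between the lines by the test of the difference itself. MCCC2 responded less to DHT in Ver, with a log2 difference of -0.56 (SE 0.092, adjusted p = 1.4e-08), and this call held in every alternative run. The effect of enzalutamide on top of DHT differed for MCCC2 by -0.29 (SE 0.089, adjusted p = 0.0194) and for PPM1K by -0.44 (SE 0.12, adjusted p = 0.0165), and both calls were lost in 6 of the 8 fits that left out 1 library. Each group has 2 libraries, and line and sequencing lane cannot be told apart.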

How the results depend on the processing

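With 1 library left out at a time, the genes called went from 9987 to a range of 8459 to 8687 for DHT in Vc and from 9936 to 8407 to 8636 in Ver, from 121 to 47 to 62 and from 255 to 112 to 174 for enzalutamide, and from 5059 to 3731 to 3873 and from 6076 to 4331 to 5103 for enzalutamide on top of DHT. For Ver against Vc the range was 2828 to 3191 in control medium (all libraries 4252), 2666 to 3076 with DHT (3895), 2501 to 2880 with enzalutamide (3736) and 3139 to 3622 with both (4584). For the differences between the lines it was 300 to 529 for DHT (523), 1 to 4 for enzalutamide (5) and 93 to 357 for enzalutamide on top of DHT (291). The members called ranged from 7 to 7 and 6 to 7 for DHT in Vc and Ver, 0 to 1 in each line for enzalutamide, 2 to 3 and 3 to 3 on top of DHT, and 2 to 3, 2 to 2, 1 to 3 and 3 to 3 for Ver against Vc in the same order of treatments. For the differences between the lines they ranged from 1 to 1 (DHT), 0 to 0 (enzalutamide) and 0 to 1 (enzalutamide on top of DHT). In these fits the group left with 1 library is assumed to vary like the others.

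Outside these fits, the count for the difference in enzalutamide response went from 5 to 10 with only the groups compared and to 2 in DESeq2. Over the single-gene results, 1736 kept their side of the threshold under the other settings, 26 fell below it and 15 passed it; when 1 library was left out 1444 kept it, 158 fell below and 3 passed. No call reversed. With 1 library left out, 15 untested BCAT1 values moved by more than 1 SE. Under the other settings 1 further value moved, since none of the 5 genes most like BCAT1 stayed among the 5 most alike by Spearman correlation. Same-numbered libraries did not visibly deviate together (28 pairs of groups, correlations from -0.0487 to 0.0469). No pairing by number was seen, but this check cannot exclude a shared preparation with a small effect. With the replicate number as a block, 9975 genes were called for DHT in Vc and 314 for the difference in enzalutamide effect on top of DHT, against 9987 and 291 without it. The low counts of BCAT1 in Vc (5 to 29 per library) and of BCKDHA (4 to 27) limit the precision of their values.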
